A study of Mus musculus with 4 samples.

Results

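FOXM1, the MYB proteins MYBL1 and MYBL2 and the MuvB core are transcriptional regulators of the cell cycle. Their genes, *Foxm1*, *Mybl1*, *Mybl2*, *Lin9*, *Lin37*, *Lin52*, *Lin54* and *Rbbp4*, were chosen by name as 8 genes of 1 pathway, and 7 of them were among the 20197 genes analysed, each with a mean of 100 or more in the 4 libraries. *Lin54* was not analysed here. RNA came from 4T1 cells, a wild-type mouse mammary tumor line used as a model of metastatic breast cancer, grown in DMEM with 10% serum. All samples carried the mitochondrial dye MitoSpy Red at 20 nM, and flow cytometry collected the 5% of cells with the highest and the 5% with the lowest signal as high MMP and low MMP cells, MMP being mitochondrial membrane potential. The groups had 2 samples each, numbered 1 and 2, and no unsorted cells or other treatment entered the comparison. The cells were a cultured line with no host tissue. The study describes the replicates as independent experiments, whereas the labels give only their numbers, and the p-values below measure the spread between these samples.

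The MuvB core is a small assembly of LIN9, LIN37, LIN52, LIN54 and the histone-binding protein RBBP4. In resting cells and in G1 phase it joins the pocket protein p130 or p107 and an E2F factor with its DP partner to form the DREAM complex, which represses cell cycle genes. When cells enter S phase the pocket protein leaves and B-MYB, the product of *Mybl2*, takes its place. In G2 phase FOXM1 joins, and the genes needed for mitosis are switched on. LIN54 is the subunit that reads the DNA, at a promoter element called CHR (cell cycle genes homology region), whereas E2F sites mark the genes of the earlier wave, at the entry to S phase. *Mybl2* is itself a gene of that earlier wave.

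The libraries had 22591970 to 26395015 reads assigned to genes. Values are normalized reads, scaled so that each library sums to 20000000, and differences are those of log2(value + 1), high MMP minus low MMP. The label of an epithelial tumor line held, as 6 of 7 epithelial markers were measured with a summed level of 47592 to 65174 per library, against 0.758 to 5.31 for the 2 immune and 1.74 to 6.20 for the 2 endothelial markers measured. The 3 fibroblast markers measured summed to 334 and 374 in high MMP and 548 and 604 in low MMP cells, nearly all of it *Pdgfra*, and their part in the results below was not tested. *Krt5*, 3 immune, 1 endothelial, 2 fibroblast and both erythroid markers were not analysed here. High MMP 1 stood apart in the share of reads from protein-coding transcripts of the mitochondrial genome, 1.27% against 2.02% to 2.24% in the other 3, and the part of this in the results below was not tested.

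The DNA elements that this pathway reads are shown for 2 of the regulators and for 3 genes they are known to act on, because the results below set regulators and targets side by side. The windows are the 150 bases before the RefSeq transcription start, 5′ to 3′ on the strand of the gene, in GRCm38.p6 (*Mybl2* chr2:163054485-163054634, + strand; *Lin52* chr12:84451358-84451507, + strand; *Cdc20* chr4:118437344-118437493, - strand; *Cdk1* chr10:69352913-69353062, - strand; *Ccnf* chr17:24251410-24251559, - strand). Capitals mark, on either strand, the CHR letters TTTGAA, the CCAAT box read by the factor NF-Y, and 2 forms of an E2F site, TTTNNCGC and GGCGGGA.
Mybl2: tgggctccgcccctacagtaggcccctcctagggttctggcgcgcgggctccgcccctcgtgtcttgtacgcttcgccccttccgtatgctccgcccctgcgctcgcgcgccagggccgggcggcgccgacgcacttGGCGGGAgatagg
Lin52: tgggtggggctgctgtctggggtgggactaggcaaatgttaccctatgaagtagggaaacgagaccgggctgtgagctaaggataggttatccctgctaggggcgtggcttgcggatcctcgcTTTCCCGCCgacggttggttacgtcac
Cdc20: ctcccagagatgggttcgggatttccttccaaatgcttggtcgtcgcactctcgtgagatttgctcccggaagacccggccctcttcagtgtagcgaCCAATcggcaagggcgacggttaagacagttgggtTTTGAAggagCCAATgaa
Cdk1: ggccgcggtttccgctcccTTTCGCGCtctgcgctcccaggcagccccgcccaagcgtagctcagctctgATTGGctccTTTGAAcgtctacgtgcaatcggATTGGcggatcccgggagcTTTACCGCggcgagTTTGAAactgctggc
Ccnf: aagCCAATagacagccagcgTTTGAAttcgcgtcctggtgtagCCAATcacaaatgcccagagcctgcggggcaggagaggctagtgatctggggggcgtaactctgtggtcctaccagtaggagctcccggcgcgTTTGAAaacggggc

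The *Mybl2* window held 1 E2F form, starting 13 bases before the start site, and no CHR letters TTTGAA. That of *Lin52* also held E2F letters and no CHR letters, and its capitals are the 2 forms overlapping on opposite strands. *Cdc20*, which encodes an activator of the anaphase-promoting complex, held CHR letters 18 bases before the start between 2 CCAAT boxes. *Cdk1*, the gene of the mitotic kinase, held CHR letters at 71 and 15 bases, 2 E2F forms, and 2 CCAAT boxes on the other strand, which read ATTGG in the window. *Ccnf*, which encodes cyclin F, held CHR letters at 130 and 14 bases with 2 CCAAT boxes. Over 300 bases, from 250 before to 50 after the start, *Lin37* held CHR letters at 197 bases before the start, an E2F form at 16 bases and 2 CCAAT boxes, *Rbbp4* held 1 CCAAT box and no E2F or CHR letters, and *Lin54* had 2 annotated starts, each with CHR letters. *Foxm1*, *Mybl1* and *Lin9* are not in the promoter table.

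Of the 73 genes listed as late cell cycle targets of MuvB and FOXM1, 61 had a promoter sequence, and 39 of them (63.9%) held TTTGAA in at least 1 window. The share was 20.2% over the 27025 genes with a promoter and 16.7% among 42 early targets (7 genes). TTTNNCGC went the other way, with 45.2% of early and 11.5% of late targets, against 5.93% of all genes. GGCGGGA was held by 38.1% of early targets, 27.9% of late targets and 12.7% of all genes, and CCAAT, which can stand beside either, by 66.7%, 73.8% and 41.1%. The forkhead letters TAAACA were in 14.8% of late targets, 7.14% of early targets and 15.1% of all genes. Among the 11678 genes with both a promoter and expression values the shares were 14.9% for TTTGAA, 9.24% for TTTNNCGC, 22.4% for GGCGGGA, 42.6% for CCAAT and 10.7% for TAAACA, so the late targets lay nearer to this background in both E2F forms. Both lists were made from genes known for this regulation, so these shares describe the lists and are not independent evidence of it. A match is only a run of letters, and other variants of these elements were not searched.

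**Figure D1:**
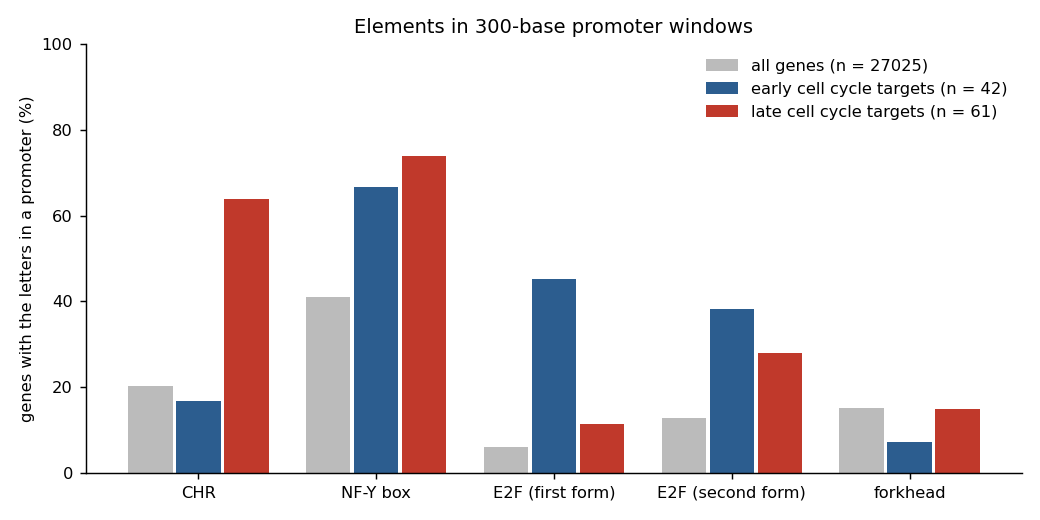
Share of genes, in percent, with each element in at least 1 RefSeq promoter window of 300 bases, for all 27025 genes with a promoter (grey), 42 early targets (blue) and 61 late targets (red). The CHR bar of the late targets reaches 63.9%, against 20.2% for all genes, and the first E2F form reaches 45.2% in the early targets. Genes with expression values, not plotted, had 14.9% and 9.24%.

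Among the regulators, *Mybl2* was the one whose difference stood furthest from 0, and it was lower in high MMP cells. It encodes B-MYB, the MYB protein of dividing cells (ENSMUSG00000017861, GRCm38 chromosome 2, 163054687 to 163084688, + strand, 15 exon blocks). Its values were 1858 and 1801 normalized reads in high MMP 1 and 2, and 2216 and 2277 in low MMP 1 and 2. The groups did not overlap, and the replicates lay close together in both. The group means were 1829 ± 40.4 (SD, n = 2) and 2246 ± 43.1 (SD, n = 2), a log2 difference of -0.30 (SE 0.07, 95% interval -0.50 to -0.09), which is a change of -18.6% in high MMP cells. Each of the 4 comparisons of a high with a low library gave a negative value, from -0.34 to -0.25. The unadjusted limma p was 0.0145, but the adjusted p was 0.472, so the gene did not pass. In edgeR's quasi-likelihood test on the recovered reads the unadjusted p was 0.0302 (adjusted 0.689), and in DESeq2 it was 0.0852 (adjusted 1.000). As in any bulk sample, fewer cells with high expression and less RNA per cell cannot be told apart.

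*Foxm1*, the forkhead factor of G2 phase (ENSMUSG00000001517, chromosome 6, 128362967 to 128376146, + strand), pointed the other way, but on 1 library. It had 4192 and 5207 normalized reads in high MMP 1 and 2, and 4128 and 3997 in low MMP 1 and 2. Both high MMP libraries were above both low MMP libraries, yet high MMP 1 was only just above low MMP 1 (0.02 on the log2 scale), whereas high MMP 2 was above both by 0.33 and 0.38. The means were 4700 ± 717 and 4062 ± 92.5 (SD, n = 2 each). The log2 difference was 0.20 (SE 0.13, 95% interval -0.16 to 0.56, limma adjusted p 0.734, unadjusted 0.200). Leaving out high MMP 2 brought it to 0.05, and leaving out high MMP 1 to 0.36, while the gap between both high MMP libraries was 0.31. In edgeR and DESeq2 the adjusted p was 0.732 and 1.000. *Foxm1* shares 144 exon bases (2.50% of its exon length) with *Tex52* on the same strand, which had at most 1.67 normalized reads in any library.

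The ratio of *Foxm1* to *Mybl2* in normalized reads, which compares libraries and not the levels of both genes, was 2.26 and 2.89 in high MMP 1 and 2, and 1.86 and 1.76 in low MMP 1 and 2. The high MMP values lay above the low ones. This follows from the values of *Foxm1* and *Mybl2* already given and is no further result. With 2 samples a group an exact permutation test cannot go below p = 0.333 (two-sided).

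*Mybl1*, which encodes A-MYB and is best known from male germ cells, had 440 and 485 normalized reads in high MMP cells and 436 and 482 in low MMP cells (ENSMUSG00000025912, chromosome 1, 9667415 to 9700209, - strand). The groups overlapped throughout. The log2 difference was 0.01 (SE 0.11), and its 95% interval of -0.28 to 0.30 corresponds to a change between -17.5% and 23.4%. Per kilobase of all annotated exons, the *Mybl2* level was 4.33 to 5.93 times that of *Mybl1* in the 4 libraries.

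None of the 4 MuvB subunits measured differed between the groups by more than its SE. *Lin9*, a scaffold subunit through which the core binds B-MYB (ENSMUSG00000058729, chromosome 1, 180641150 to 180690694, + strand), had 905 and 961 normalized reads in high MMP and 887 and 880 in low MMP cells. The high MMP values were both above the low ones, by 0.03 to 0.13 on the log2 scale. The difference was 0.08 (SE 0.08, 95% interval -0.14 to 0.29, limma adjusted p 0.850), and it was 0.12 without high MMP 1 and 0.03 without high MMP 2.

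*Lin52*, the small subunit that binds p107 or p130 once the kinase DYRK1A has phosphorylated it, had 174 and 182 normalized reads in high MMP and 175 and 222 in low MMP cells (ENSMUSG00000085793, chromosome 12, 84451422 to 84546145, + strand). Low MMP 2 was above the other 3 libraries, which lay together. The difference of -0.15 (SE 0.16, 95% interval -0.59 to 0.29) was 0.02 without low MMP 2. *Lin37*, a subunit needed for repression by DREAM (ENSMUSG00000036845, chromosome 7, 30555441 to 30559838, - strand), had 178 and 162 in high MMP and 180 and 160 in low MMP cells. Its difference was less than 0.01 in size (SE 0.13, 95% interval -0.37 to 0.36), and its sign depended on the scaling, as 0.04 was obtained after median-of-ratios rescaling. These were the members with the fewest reads, 201 to 251 for *Lin52* and 181 to 235 for *Lin37* per library, where counting alone gives an error of up to 7.43%.

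*Rbbp4* encodes a histone chaperone that also serves in chromatin complexes other than MuvB (ENSMUSG00000057236, chromosome 4, 129307100 to 129335370, - strand). It had 8189 and 6709 normalized reads in high MMP and 7130 and 7611 in low MMP cells. The high MMP libraries were the highest and the lowest of the 4, and the low MMP libraries lay between them. The difference was 0.01 (SE 0.13, 95% interval -0.36 to 0.37), and it was -0.13 without high MMP 1, 0.15 without high MMP 2 and -0.03 after quantile normalization. Its close paralog *Rbbp7* had 7283 and 6418 against 6509 and 6824, and in both genes high MMP 1 was the highest library and high MMP 2 the lowest. How reads shared by the 2 genes were counted is not stated. On the opposite strand *Sync* covers 782 exon bases of *Rbbp4* (8.94%), but it had only 26.2 to 37.1 normalized reads. The antisense transcript *Gm26722* covers 796 (9.10%), and it was not analysed here.

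**Figure D2:**
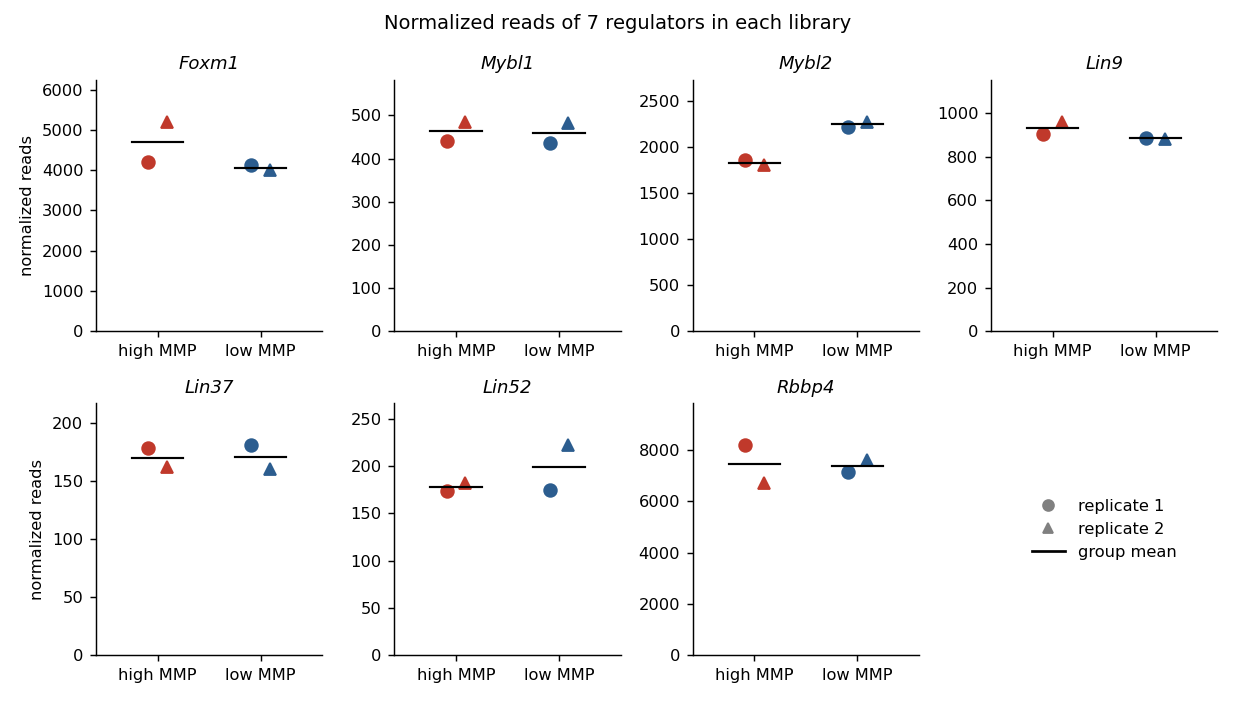
Normalized reads (library total 20000000, axes from 0) of the 7 regulators in each library, with high MMP in red, low MMP in blue, replicate 1 as circles, replicate 2 as triangles and the group mean as a line. The *Mybl2* points of high MMP cells (1858 and 1801) lie below those of low MMP cells (2216 and 2277), and the *Foxm1* point of high MMP 2 (5207) lies above the other 3.

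Levels between genes can be compared per kilobase of exon. By the mean of the 4 libraries the order was *Rbbp4* (847 normalized reads per kilobase), *Foxm1* (761), *Mybl2* (440), *Lin9* (125), *Lin37* (123), *Mybl1* (85.3) and *Lin52* (60.6). *Rbbp4* (767 to 937) and *Foxm1* (695 to 905) overlapped in range, as did *Lin9* (121 to 133) and *Lin37* (115 to 130), so neither pair is ordered beyond its spread. The other neighbours did not overlap. The exon lengths are those of all annotated transcripts together. Which transcripts the cells used was not determined, so the order of genes can depend on these lengths.

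None of the 7 had an adjusted p under 0.05 in limma, edgeR or DESeq2. Over all genes limma and edgeR called 0% (2011 and 1423 genes at an unadjusted p under 0.05), and DESeq2 called 0.663% higher and 0.291% lower of the 12365 genes it adjusted. At an unadjusted limma p under 0.05, 1 regulator was lower in high MMP cells, *Mybl2*, and 0 were higher, against 6.01% and 3.95% of all genes. The groups did not overlap in 3 regulators, *Foxm1* and *Lin9* higher and *Mybl2* lower, where 14.9% of the 9999 genes whose mean reached 100 were higher and 22.7% lower in this way. The median difference of the 7 was 0.01, against -0.03 for those 9999 genes.

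Several genes whose proteins bind or modify these regulators showed larger RNA differences than the regulators' own genes. Of 22 such genes, none passed in limma or edgeR (0% of all genes). At an unadjusted limma p under 0.05, 5 were higher and 2 lower, against 3.95% and 6.01% of all genes. DESeq2 called 4, all higher in high MMP cells: *Ccnf*, *Cdk1*, *Fzr1* and *Plk1*. Of the genes it adjusted, it called 0.663% higher and 0.291% lower. *Ccnf*, *Cdk1* and *Plk1* are also on the list of late targets described below, as is *Ccna2* of the 22. The median difference of the 22 was 0.06. In 7 the high MMP libraries were both above the low ones and in 4 both were below, with overlap in the other 11, where 14.9% and 22.7% of the genes whose mean reached 100 were arranged in these ways.

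*Ccnf* encodes cyclin F, which restrains B-MYB. It had 1697 and 2081 normalized reads in high MMP and 895 and 1042 in low MMP cells, and the log2 difference was 0.96 (SE 0.14, limma adjusted p 0.472, DESeq2 adjusted p 3.22e-06). *Fzr1* encodes CDH1, the activator of the anaphase-promoting complex through which FOXM1 is degraded after mitosis. It had 2081 and 2319 against 1095 and 1344, a difference of 0.86 (SE 0.14, limma adjusted p 0.472, DESeq2 adjusted p 3.47e-05). The groups did not overlap in either gene, and the lowest high MMP value exceeded the highest low MMP value by more than the spread within a group.

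*Cdk1* had 7920 and 7188 normalized reads in high MMP and 3627 and 4642 in low MMP cells, and differed by 0.88 (SE 0.15, DESeq2 adjusted p 1.39e-05). *Plk1*, whose kinase activates FOXM1, had 4509 and 4543 against 2856 and 2995, a difference of 0.63 (SE 0.08, DESeq2 adjusted p 0.000701). The limma adjusted p was 0.472 for both. *Ccna2*, the cyclin A gene whose product helps to activate both B-MYB and FOXM1, was higher by 0.32 (SE 0.09) with 7321 and 7406 against 5685 and 6095, and passed in neither test (limma adjusted p 0.472, DESeq2 0.415).

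The largest negative differences among the partners were those of *Cdk2* and *Myb*. *Cdk2*, the kinase partner of cyclins E and A, had 1268 and 1454 normalized reads in high MMP and 1923 and 1946 in low MMP cells, and differed by -0.51 (SE 0.10, limma adjusted p 0.472, DESeq2 0.182). *Myb*, the third member of the MYB family, had 129 and 113 against 164 and 177, a difference of -0.49 (SE 0.14, limma adjusted p 0.472, DESeq2 1.000). In *Cdk2* and *Myb*, as in *Mybl2*, both high MMP libraries lay below both low MMP libraries.

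The subunits that turn MuvB into DREAM differed less. The pocket protein genes *Rbl1* (p107), *Rbl2* (p130) and *Rb1* differed by 0.15 (SE 0.10), -0.24 (SE 0.11) and 0.06 (SE 0.19), and the groups were apart only in *Rbl2*, with 412 and 361 against 448 and 461 normalized reads. *E2f4* differed by -0.02 (SE 0.08) and *E2f5* by 0.21 (SE 0.08), the latter with 519 and 524 against 455 and 447. Their DP partners differed by -0.02 (*Tfdp1*, SE 0.09) and -0.08 (*Tfdp2*, SE 0.11). *Dyrk1a*, the kinase of LIN52, differed by 0.17 (SE 0.10) and *Sin3b*, a corepressor of DREAM, by 0.10 (SE 0.12). *Foxo3*, a forkhead antagonist of FOXM1, differed by -0.06 (SE 0.24), *Yap1*, whose product acts together with B-MYB and MuvB, by less than 0.01 in size (SE 0.09), and the NF-Y genes by -0.07 (*Nfya*, SE 0.07), 0.06 (*Nfyb*, SE 0.09) and 0.07 (*Nfyc*, SE 0.10). The directions of *E2f4* and *Tfdp1* flipped under median-of-ratios and TMM rescaling, and that of *Yap1* under quantile normalization. None of these genes passed in limma or DESeq2.

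**Figure D3:**
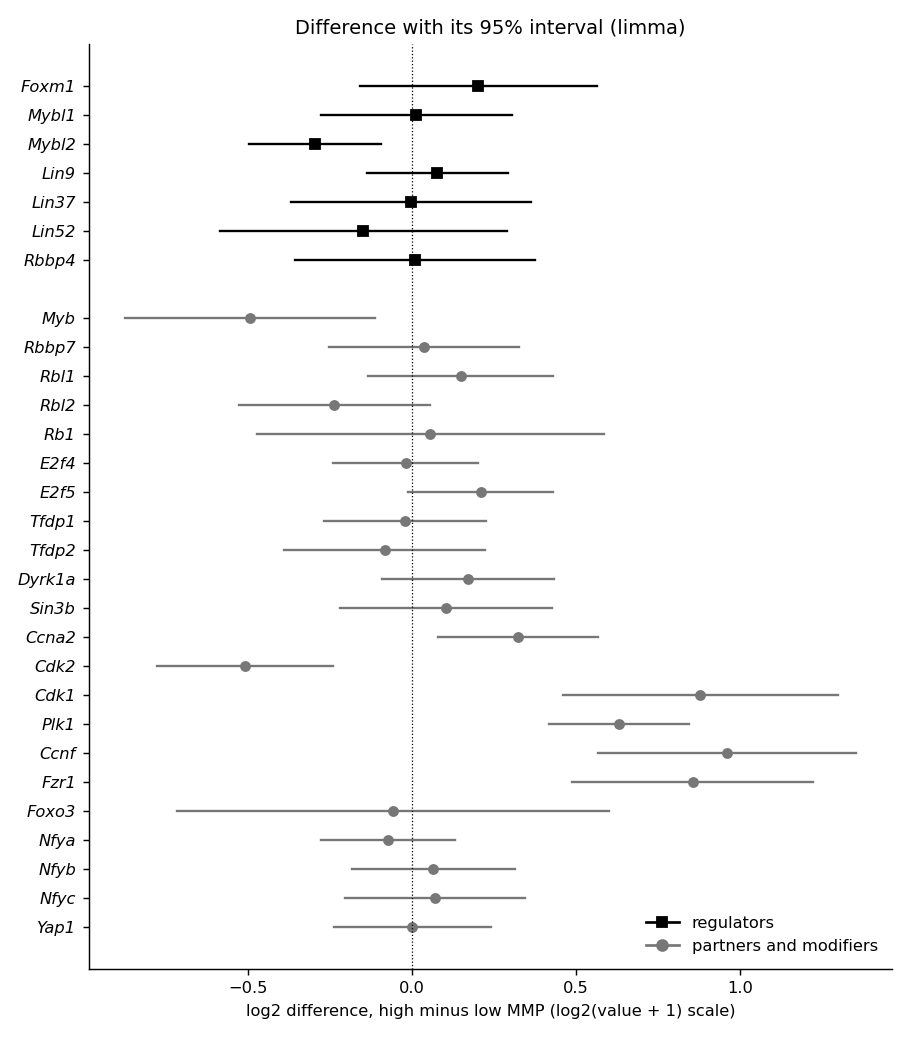
Log2 difference, high minus low MMP, of the 7 regulators (black squares) and 22 partners and modifiers (grey circles), with the 95% interval of the limma fit as bars, not adjusted for the number of genes. The interval of *Mybl2* (-0.50 to -0.09) lies below 0, while the other regulators' intervals include 0. Among the partners, those of *Cdk1*, *Plk1*, *Ccnf* and *Fzr1* lie well above 0 and that of *Ccna2* just above it. Those of *Cdk2* and *Myb* lie below 0.

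The genes that MuvB, B-MYB and FOXM1 are known to switch on had mostly higher values in high MMP cells. Their list was set with earlier results of these data known, so the counts describe it and are not independent evidence. Of the 73 late targets, 69 had a positive difference, and in 63 both high MMP libraries were above both low MMP libraries, an arrangement held by 14.9% of all genes whose mean reached 100. Only *Ccnb2* was lower in this way, and the other negative values were those of *Mki67*, *Pttg1* and *Knstrn* (-0.11 to -0.02), named after their values were seen. The median was 0.39, and it was 0.34 to 0.49 in the 4 comparisons of a high with a low library. In limma and in edgeR 0 of the 73 passed (0% of all genes). At an unadjusted limma p under 0.05, 50 were higher and 0 lower, against 3.95% and 6.01% of all genes. DESeq2 called 29 of them higher and 0 lower, against 0.663% and 0.291% of the 12365 genes it adjusted. Of the 22 partners, 4 are also on this list (*Ccna2*, *Ccnf*, *Cdk1* and *Plk1*).

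The late targets differed widely among themselves. At one end, *Cdc25b*, the phosphatase that activates CDK1, had 1986 and 2441 normalized reads in high MMP and 1037 and 1130 in low MMP cells (1.02, SE 0.13, DESeq2 adjusted p 8.94e-08). *Ccnb1*, which encodes cyclin B1, had 5351 and 5764 against 2675 and 2914 (0.99, SE 0.09, DESeq2 adjusted p 1.75e-09). *Top2a*, the topoisomerase that untangles chromosomes, had 37134 and 38824 against 18715 and 20473 (0.96, SE 0.13, DESeq2 adjusted p 1.36e-09). Each of these was about 2-fold higher, and *Aurkb* (0.88, SE 0.11) and *Cenpf* (0.68, SE 0.22) were called higher by DESeq2 as well. *Cenpf* had 3995 and 6070 normalized reads against 3055 and 3101, and its difference was 0.38 without high MMP 2 and 0.98 without high MMP 1.

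At the other end were genes of the same mitotic program. *Ccnb2*, the cyclin B2 gene, had 2982 and 2605 normalized reads in high MMP and 3039 and 3081 in low MMP cells (-0.13, SE 0.10). *Cdc20*, whose CHR letters are printed above, had 3260 and 3069 against 2860 and 3038 (0.10, SE 0.08). *Bub1* differed by 0.15 (SE 0.11), *Kif20a* by 0.24 (SE 0.09) and *Birc5* by 0.28 (SE 0.12), and none of these 5 passed in limma or DESeq2. The values of *Ccnb2* and *Bub1* changed with the high MMP library that was left out. Without high MMP 2 *Ccnb2* was -0.04 and *Bub1* 0.03, and without high MMP 1 they were -0.23 and 0.27. Leaving out each library in turn kept *Birc5* between 0.17 and 0.38 and *Cdc20* between 0.06 and 0.15. Within the late list the median difference was 0.46 for the 39 genes with TTTGAA and 0.42 for the 22 without. Over all genes with a promoter whose mean reached 100, the median was less than 0.01 for the 1090 genes with the letters and -0.03 for the 6785 without. Both high MMP libraries were above both low ones in 21.1% of those with the letters and 14.2% of those without. They were below in 19.5% and 23.4%. The listed late and early targets were not taken out of these all-gene values.

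The early targets lay on the opposite side, and their list too was set with earlier results of these data known. Of 55 genes, 54 had a negative difference, the exception being *Tyms* at 0.06 (SE 0.15), named after its value was seen, and in 43 both high MMP libraries were below both low MMP libraries, in 0 above, against 22.7% and 14.9% of all genes whose mean reached 100. The median was -0.41, and -0.58 to -0.24 in the 4 comparisons of libraries. In limma and in edgeR 0 passed (0% of all genes). At an unadjusted limma p under 0.05, 30 were lower and 0 higher, against 6.01% and 3.95% of all genes. DESeq2 called 11 lower and 0 higher, against 0.291% and 0.663% of the genes it adjusted. *Mybl2* is on this list, and its -0.30 was nearer to 0 than the median of the list. *Cdc6*, a licensing factor of replication origins, had 1171 and 829 normalized reads in high MMP and 2507 and 2832 in low MMP cells (-1.43, SE 0.19, DESeq2 adjusted p 5.83e-10). *E2f1*, the activating E2F gene, had 764 and 647 against 1101 and 1206 (-0.71, SE 0.12, DESeq2 adjusted p 0.0191), and *Uhrf1* differed by -0.76 (SE 0.16, DESeq2 adjusted p 0.00482). *Pcna* (-0.46, SE 0.14), *Mcm2* (-0.44, SE 0.11), *Ccne1* (-0.33, SE 0.17), *Rrm2* (-0.21, SE 0.18) and *Tk1* (-0.13, SE 0.12) did not pass in limma, edgeR or DESeq2. Without high MMP 2 *Pcna* was -0.29, *Ccne1* -0.13 and *Tk1* -0.02, and *Rrm2* was less than 0.01 in size. High MMP 2 was lower than high MMP 1 in each of these 8 genes, and the median difference between the 2 high MMP libraries over the list was 0.23.

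**Figure D4:**
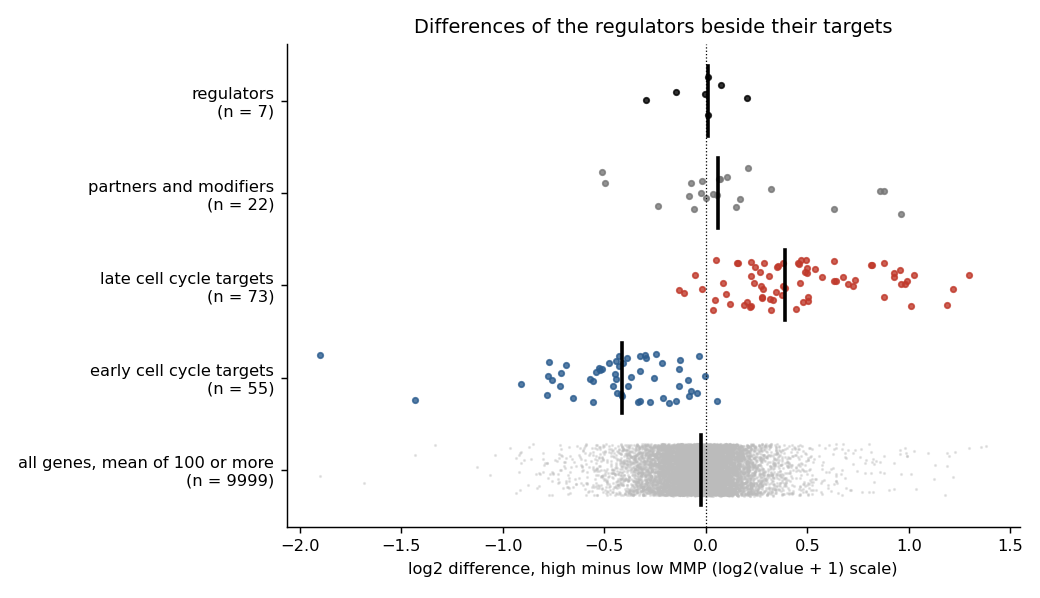
Log2 difference, high minus low MMP, of each gene (points, spread vertically for sight) with the median of each group as a bar, for the 7 regulators, 22 partners and modifiers, 73 late targets, 55 early targets and the 9999 genes whose mean reached 100. The regulators lie around 0.01, the late targets around 0.39 and the early targets around -0.41.

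The genes most like *Foxm1* and *Mybl2* over the 4 libraries were sought among the 9999 genes whose mean reached 100, by Euclidean distance of the log2 values after taking away each gene's mean. For *Foxm1* these were *Lrrc8c* (distance 0.03), *Cenpa*, *Disp1*, *Stil* and *Src* (0.04 each), of which *Cenpa* is on the late list. *Cenpa* had 3283 and 4141 normalized reads in high MMP and 3170 and 3155 in low MMP cells, the same raised value in high MMP 2. For *Mybl2* they were *Wdyhv1* (0.02), *Zfp397* (0.03), *Mapk1ip1* (0.03), *Cpsf6* (0.03) and *Mpg* (0.04), none of them on either list. With 4 libraries, many genes can lie this close, and no more is read from it.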

How the data were processed

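Per the labels, RNA of 100000 sorted cells per sample entered a stranded mRNA library from 200 ng. The authors aligned reads to the mouse transcriptome (GRCm38, mm10) with STAR and quantified them per gene, and HTSeq is also named in their processing notes. Versions, annotation release and strand setting are not given in the sources used here. The deposited signal is reads per gene divided by library size, each column summing to 20000000, for genes expressed in at least 2 of 4 samples. All values in a column were whole multiples of 1 step (tolerance 0.1 of a step, 100% of values), which gave back whole reads. 0 columns belonged to no sample.

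log2(value + 1) was tested with limma 3.58.1 (trend) in R 4.3.3, high against low MMP, over all 20197 genes, with Benjamini-Hochberg adjustment (threshold 0.05). edgeR 4.0.16 and DESeq2 1.42.0 were run on the recovered reads. Intervals are 95%. When tested on simulated data, all fits recovered the simulated fold changes, but limma on the full table made no calls, whereas edgeR and DESeq2 did, so an absence of calls in limma carries little information. Symbols came from GENCODE M21 (19993 identifiers matched), promoters from RefSeq (GRCm38.p6). Named genes were all regulators and partners, 12 late and 8 early targets set by name, and the 5 nearest patterns. Members, lists and rules were chosen with earlier results of these data known, and GGCGGGA was added as a second E2F form after promoters had been read. Alternatives were pseudocounts, filters, scalings, no trend, the replicate block, the count tests and leaving out each sample.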

Additional observations from a re-analysis of the deposited data

How the results depend on the processing

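No regulator passed under any alternative run, and leaving out each library in turn left limma with 0 to 0 calls among regulators, partners, late and early targets. edgeR without a block also called 0 genes. With the replicate block edgeR called 18 late targets, 7 early targets and 3 partners (106 of all genes), and with DESeq2 29, 11 and 4 (118). The study sorted both groups from stained cells and reports independent experiments, so same-numbered samples may come from 1 experiment. No source states what the numbers mark. Deviations of same-numbered samples correlated at -0.42 over 12902 genes, which with 1 difference a group does not settle whether they are paired, and limma with the block called 0 genes. A crossed pairing was chosen after seeing the data and follows no label. It gave 45 late targets, 29 early targets and 5 partners with edgeR (733 of all genes) and 0 with limma. The cause of these differences was not tested. Under the block *Mybl2* had an unadjusted limma p of 0.0811. The log2 differences below changed sign. *Lin37* was 0.037 with median-of-ratios and DESeq2, 0.033 with TMM and edgeR (also with the replicate block), 0.034 with the crossed block and 0.071 with quantile normalization. *E2f4* was 0.022 with median-of-ratios, 0.023 with DESeq2, 0.019 with edgeR and 0.018 with TMM and either block. *Tfdp1* was 0.019 with median-of-ratios, 0.020 with DESeq2, 0.016 with edgeR and 0.015 with TMM and either block. With quantile normalization *Rbbp4* was -0.030 and *Yap1* -0.0073. Leaving out a library gave ranges across 0 of -0.059 to 0.085 for *Mybl1*, -0.089 to 0.081 for *Lin37*, -0.32 to 0.022 for *Lin52*, -0.13 to 0.15 for *Rbbp4*, -0.054 to 0.13 for *Rbbp7*, -0.15 to 0.27 for *Rb1*, -0.071 to 0.032 for *E2f4*, -0.075 to 0.030 for *Tfdp1*, -0.19 to 0.027 for *Tfdp2*, -0.035 to 0.24 for *Sin3b*, -0.32 to 0.21 for *Foxo3*, -0.015 to 0.14 for *Nfyb*, -0.025 to 0.16 for *Nfyc* and -0.053 to 0.053 for *Yap1*. With 2 samples a group, a gene that did not pass is not shown to be unchanged. Even *Cdc6*, with a difference of -1.43, did not pass in limma.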
